A study of Mus musculus with 12 samples.

Results

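The transcripts of 10 growth factors that platelets carry and release were followed across 4 genotypes of mouse: the vascular endothelial growth factors Vegfa, Vegfb and Vegfc, the angiopoietin Angpt1, the platelet-derived growth factors Pdgfa, Pdgfb and Pdgfc, the transforming growth factor Tgfb1, the insulin-like growth factor Igf1 and the hepatocyte growth factor Hgf. They were taken by gene symbol, whatever their values, from a count table of 49671 genes, and all 10 passed the filter on low counts that left 15399 genes. RNA had been sequenced from 12 libraries, labelled as pools of mouse embryos at embryonic day 9.5, with 3 libraries for each genotype: wild type, knockout (KO) of Lyl1, KO of Scl, and a double KO lacking both genes. No treatment was recorded for any group, and nothing in the sources used here gives the strain, the knockout alleles, the number of embryos in a pool or whether the replicates came from separate litters. The p-values below therefore measure the spread between these libraries. Levels are TMM-normalised CPM, counts scaled to a common library size, group values are means ± SD with n = 3, and fold changes are log2 values ± SE from edgeR's quasi-likelihood test. A gene is called when its Benjamini-Hochberg adjusted p over all tested genes is under 0.05.

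Lyl1 and Scl (whose mouse gene symbol is Tal1) are closely related transcription factors of the basic helix-loop-helix class, made by blood-forming and vessel cells. They pair with E proteins, bind E-box DNA and work in complexes with GATA factors, and Scl is known to be needed for blood to form in the embryo and for red cells and megakaryocytes to mature. Megakaryocytes, the cells that shed platelets, pack growth factors into alpha granules that platelets release at wounds and vessel walls. VEGF ligands act on endothelial receptors to drive the growth of blood vessels and lymphatic vessels, Angpt1 keeps vessels stable through the receptor Tie2, PDGF ligands recruit smooth muscle cells, pericytes and fibroblasts, and TGF-beta restrains growth and promotes matrix. Igf1 is a general growth factor that macrophages also make, and Hgf acts on epithelial and endothelial cells through the receptor Met.

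The libraries held 24324685 to 29212443 counts each. A count of 0 allows a level of up to 3 counts, or 0.0936 to 0.131 CPM, for counting error alone. In wild type, Lyl1 was read at 203, 192 and 149 CPM, and in Lyl1 KO at 90.4, 87.4 and 85.5 CPM. Its levels were 210.3, 198 and 118 CPM for Scl KO and 88.4, 108 and 56.5 CPM for the double KO. Lyl1 transcripts were thus about 48.5% and 46.5% of wild type in the groups labelled as lacking it, and not absent. Tal1 levels were 559, 643 and 513 CPM (wild type) and 619, 542 and 575 CPM (Lyl1 KO), as against 118, 117 and 93.4 CPM (Scl KO) and 100.4, 100.1 and 77.7 CPM (double KO). No library went against its genotype label, although the sources used here do not say which exons were deleted. The labelled tissue was another matter. Heart muscle markers summed to at most 1.20 CPM in any library, with 4 of 7 (Myh6, Nppa, Nkx2-5 and Myl7) at 0 in all 12. Neural markers summed to at most 6.97 CPM, with 2 of 7 (Sox1 and Olig2) at 0, and tail bud and muscle precursor markers to at most 4.67 CPM, with 3 of 9 (Msgn1, Cdx2 and Myf5) at 0. Igf2, a major growth factor of the midgestation embryo, had 35, 11, 8 and 1 counts in all libraries of wild type, Lyl1 KO, Scl KO and the double KO. By contrast, 18 megakaryocyte and platelet markers summed to between 18570 and 75860 CPM, and 12 macrophage markers to between 3059 and 6802 CPM. Defining markers of embryo tissue were thus near 0, and those of megakaryocytes were abundant.

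Some libraries stood apart in ways the genotypes do not explain. On the second principal component, 12.7% of the variance, replicate 3 of wild type, Scl KO and the double KO lay with the 3 Lyl1 KO libraries below 0, and replicates 1 and 2 of those groups lay above. Y-linked transcripts reached 189 to 265 CPM in Lyl1 KO replicate 3 and double KO replicates 1 and 2, and at most 0.214 CPM in the other libraries. Without replicate 3 of wild type, Scl KO and the double KO, the double KO against wild type also had Vegfb (-1.13, adjusted p = 0.00402) and Igf1 (-0.99, adjusted p = 0.00689) called, and Scl KO had Hgf (1.22, adjusted p = 0.0103). With the side of that component as a term, Angpt1 was called in Scl KO (-0.47, adjusted p = 0.0342). No member call was lost under either setting.

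Read per gene length, as RPKM (CPM per kilobase of gene length), the 10 factors spanned a wide range of levels. Averaged over all libraries, Tgfb1 led with 231 RPKM, at percentile 99 of tested genes, followed by Angpt1 with 102 RPKM at percentile 97.1. Pdgfb stood at 24 RPKM, Vegfa at 10.8, Pdgfa at 9.89, Igf1 at 6.08, Vegfc at 6.01, Vegfb at 4.42 and Hgf at 3.19 RPKM. Pdgfc was lowest at 0.438 RPKM, at percentile 16.2. The highest and lowest genotype differed in mean CPM by 10.2-fold for Vegfc, 8.40-fold for Pdgfb, 6.50-fold for Hgf, 4.10-fold for Pdgfa and 2.86-fold for Vegfa, and by 1.37-fold for Pdgfc.

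**Figure D1:**
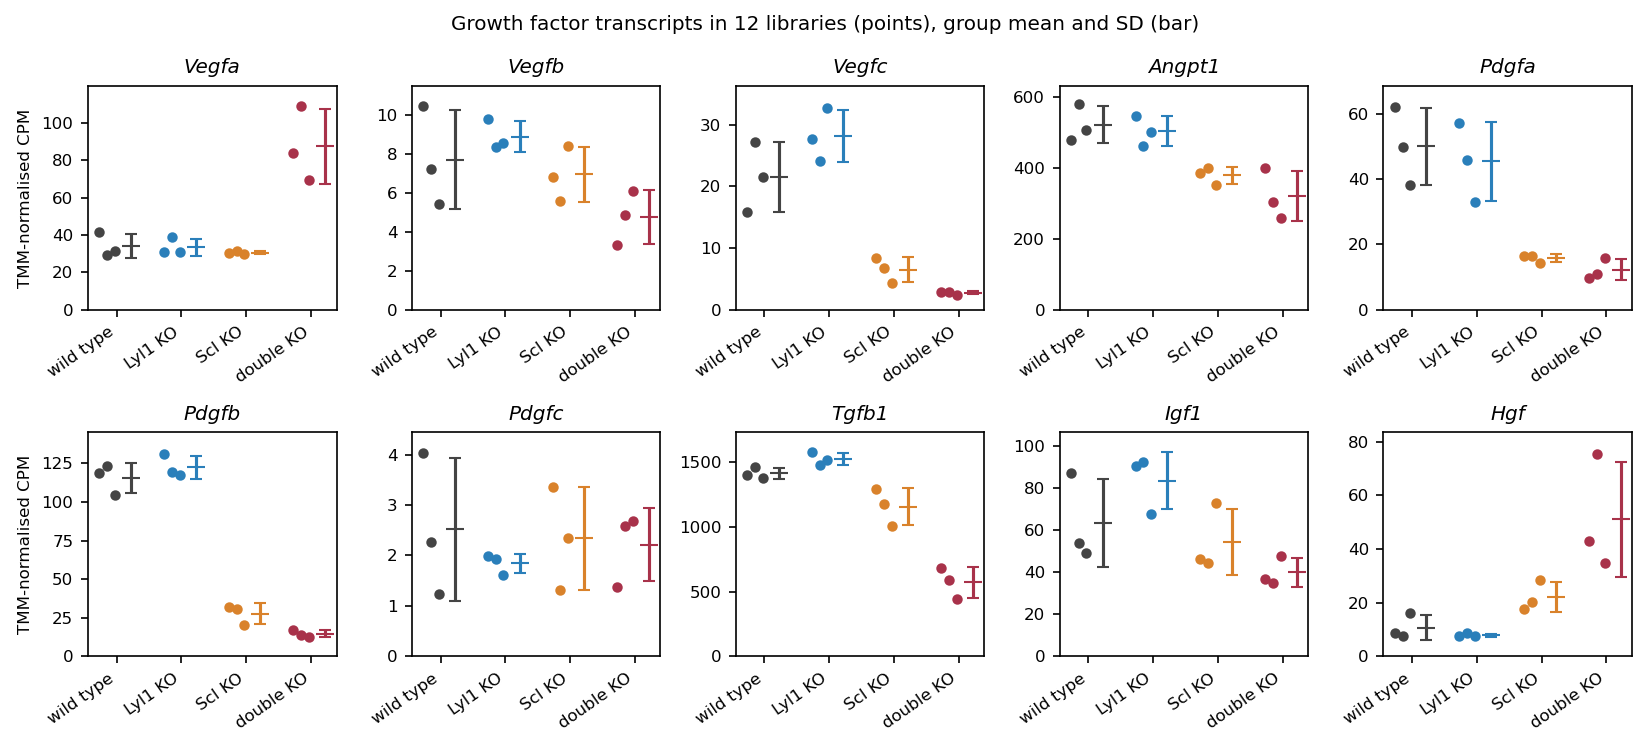
TMM-normalised CPM of each of the 10 factors on the y axis, with 1 point per library in the 4 genotypes and a bar for the group mean and SD. Pdgfb, Vegfc and Pdgfa are low in all Scl KO and double KO libraries, whereas Vegfa is high in the double KO only, where its 3 libraries sit between 69.4 and 109 CPM.

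In Lyl1 KO against wild type, 0 of the 10 factors were called by edgeR, and 0 had an unadjusted p under 0.05. Of all tested genes, 0.0714% were called in that comparison (0.039% up, 0.0325% down) and 7.99% had an unadjusted p under 0.05, so the members' count did not stand above that share. DESeq2 and limma-voom also called 0 of the 10. The intervals remain wide, since 1 SE was between 0.15 (Angpt1) and 0.45 (Pdgfc) on the log2 scale. In Scl KO, 3 of the 10 fell (Vegfc, Pdgfa and Pdgfb) and 0 rose, where 5.03% of all tested genes were called, 2.73% as falls and 2.29% as rises. With the replicate number as a block, 3 members were called as well, while the calls over all genes went from 774 to 1226. In the double KO against wild type, Vegfa and Hgf rose and Vegfc, Angpt1, Pdgfa, Pdgfb and Tgfb1 fell, which is 7 of 10 where 34.5% of tested genes were called, 16.4% up and 18.1% down. Against Scl KO, the double KO had Vegfa and Hgf higher and Vegfc, Pdgfb and Tgfb1 lower, 5 of 10 where 19.1% were called (8.37% up, 10.8% down). Against Lyl1 KO, 2 rose and 7 fell, 9 of 10 where 35.2% were called (17.4% up, 17.9% down). The median log2 fold change over the members was 0.03, -0.25, -0.70, -0.41 and -0.98 in these 5 comparisons in turn, beside 0.00, 0.00, 0.04, 0.03 and 0.06 over all tested genes. These comparisons share libraries, so their values are not independent of each other.

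**Figure D2:**
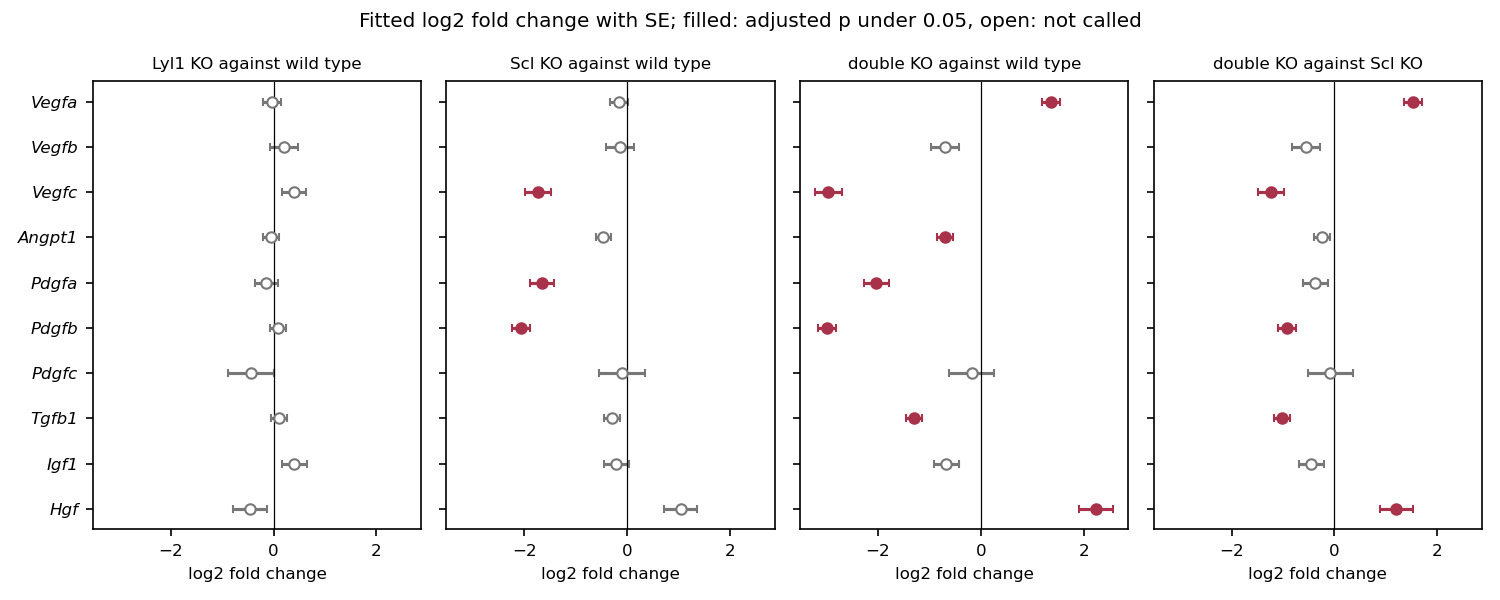
Fitted log2 fold change with its SE on the x axis for each factor in 4 comparisons, filled where the adjusted p is under 0.05. No factor is called in Lyl1 KO against wild type, 3 are called below 0 in Scl KO, and in the double KO against wild type Vegfa (1.36) and Hgf (2.25) are called above 0.

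A test of the interaction asked whether the effect of losing Lyl1 was the same with and without Scl. It was called for 5 of the 10 factors, where 9.38% of tested genes were called (3.51% up, 5.86% down). In libraries labelled as lacking Scl, loss of Lyl1 added a rise in Vegfa and Hgf and a fall in Vegfc, Pdgfb and Tgfb1. The Hgf call was lost in 12 of 21 alternative settings and the Pdgfb call in 3. Of the 18 megakaryocyte and platelet markers, 8 were called below 0 by the same test and 0 above, beside 5.86% and 3.51% of all tested genes. For Angpt1, Pdgfa, Igf1, Vegfb and Pdgfc the interaction was not called, with adjusted p between 0.153 (Igf1) and 0.778 (Pdgfc).

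Promoter sequence is shown for 4 factors on which these results turn, 2 that fell (Vegfc and Tgfb1) and 2 that rose (Vegfa and Hgf) in the double KO, because Scl and Lyl1 are E-box binding factors that work with GATA factors. Each run is the 250 bases before the gene's first base in RefSeq on build GRCm38.p6, read 5′ to 3′ on the gene's strand, and capitals mark matches to the E-box letters CANNTG or to GATA on either strand. RefSeq promoter windows were matched for 8 of the 10 members.

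Vegfc (chr8:54077282-54077531, plus strand): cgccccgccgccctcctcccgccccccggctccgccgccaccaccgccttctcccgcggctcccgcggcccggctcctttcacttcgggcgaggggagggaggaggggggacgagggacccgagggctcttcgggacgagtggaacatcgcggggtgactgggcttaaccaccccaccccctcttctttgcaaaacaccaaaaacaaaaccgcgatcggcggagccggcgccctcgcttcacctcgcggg
Tgfb1 (chr7:25686752-25687001, plus strand): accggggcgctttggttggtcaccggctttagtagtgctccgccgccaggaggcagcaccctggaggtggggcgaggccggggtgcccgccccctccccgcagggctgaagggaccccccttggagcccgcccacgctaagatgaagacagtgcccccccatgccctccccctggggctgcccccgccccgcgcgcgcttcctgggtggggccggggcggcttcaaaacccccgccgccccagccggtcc
Vegfa (chr17:46032378-46032627, minus strand): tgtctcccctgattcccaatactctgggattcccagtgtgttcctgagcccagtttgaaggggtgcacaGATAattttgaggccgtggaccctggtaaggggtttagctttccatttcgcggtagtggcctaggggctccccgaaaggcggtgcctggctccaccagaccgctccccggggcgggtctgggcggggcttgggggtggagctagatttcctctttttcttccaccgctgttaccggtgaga
Hgf (chr5:16553245-16553494, plus strand): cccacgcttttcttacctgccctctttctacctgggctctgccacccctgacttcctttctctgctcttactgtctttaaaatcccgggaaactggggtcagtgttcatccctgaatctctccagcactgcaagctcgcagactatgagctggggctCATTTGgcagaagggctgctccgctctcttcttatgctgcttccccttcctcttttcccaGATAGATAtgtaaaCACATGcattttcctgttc

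The Hgf window held 2 E-boxes, 93 and 19 bases before the start, and 2 GATA matches 33 and 29 bases before it. The Vegfa window held 1 GATA match, 181 bases before the start, and no E-box. Neither set of letters occurred in the Vegfc or Tgfb1 window, and these windows were rich in G and C (71.6% and 75.2%, against 59.2% for Vegfa and 50.8% for Hgf). Across the 8 matched members, 3 windows held an E-box and 3 held GATA, while 66.2% and 53.6% of all 32851 windows of the same length did. A match describes letters only, and sites outside these windows were not searched.

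Vegfa, the main driver of blood vessel growth (ENSMUSG00000023951, chr17:46016993-46032369, minus strand, GRCm38), was high in the double KO alone. It stood at 41.7, 29.2 and 31.5 CPM in wild-type libraries, 31.1, 38.8 and 30.8 CPM in Lyl1 KO and 30.5, 31.5 and 29.6 CPM in Scl KO. In the double KO it was at 84.0, 109 and 69.4 CPM, so that all 3 libraries lay above the 9 others and the other groups overlapped. The rise was 1.36 ± 0.18 against wild type (adjusted p = 0.000113), 1.52 ± 0.18 against Scl KO (adjusted p = 0.000188) and 1.38 ± 0.18 against Lyl1 KO (adjusted p = 9.44e-05). Neither single KO was called against wild type, with log2 fold changes of -0.02 ± 0.17 and -0.16 ± 0.17. The interaction was 1.54 ± 0.25 (adjusted p = 0.00348). Mean Vegfa was thus 256% of wild type in the double KO, against 98.3% in Lyl1 KO and 89.5% in Scl KO.

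Vegfc, the ligand of lymphatic vessel growth (ENSMUSG00000031520, chr8:54077606-54187096, plus strand), moved the other way and in steps. Its levels were 15.8, 27.2 and 21.5 CPM in wild-type libraries, 27.6, 24.2 and 32.7 CPM in Lyl1 KO, 8.32, 6.81 and 4.30 CPM in Scl KO and 2.91, 2.89 and 2.47 CPM in the double KO. Wild type and Lyl1 KO overlapped, all Scl KO libraries lay below both, and all double KO libraries lay below Scl KO. Vegfc fell by 1.73 ± 0.25 in Scl KO (adjusted p = 0.00193) and by 2.96 ± 0.26 in the double KO (adjusted p = 9.01e-06). Between the double KO and Scl KO it fell by a further 1.23 ± 0.26 (adjusted p = 0.00583), and the interaction was -1.62 ± 0.35 (adjusted p = 0.0154). In mean CPM the double KO kept 12.8% of the wild-type level, and Scl KO 30.2%.

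Vegfb, a VEGF ligand best known in heart and fat (ENSMUSG00000024962, chr19:6982473-6987651, minus strand), was low and varied within groups. Its levels were 10.5, 7.23 and 5.43 CPM in wild-type libraries, 9.80, 8.36 and 8.55 CPM in Lyl1 KO, 6.85, 5.60 and 8.43 CPM in Scl KO and 3.32, 4.85 and 6.12 CPM in the double KO. The double KO overlapped wild type and Scl KO and lay below all Lyl1 KO libraries. Only against Lyl1 KO was Vegfb called, with a fall of 0.90 ± 0.27 (adjusted p = 0.023). That call did not hold without Lyl1 KO replicate 1 (adjusted p = 0.0824), Lyl1 KO replicate 3 (0.0504), double KO replicate 1 (0.0876) or double KO replicate 2 (0.0686). Against wild type the value was -0.70 ± 0.27 (adjusted p = 0.068).

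The makeup of the VEGF family shifted with these changes. Per gene length, Vegfa made up 36.1% ± 6.11 of the summed RPKM of the 5 VEGF ligands in wild type, 31.4% ± 5.22 in Lyl1 KO, 49.4% ± 1.69 in Scl KO and 81.3% ± 5.01 in the double KO. Vegfc made up 40.0% ± 11, 45.8% ± 5.21, 18.2% ± 5.20 and 4.57% ± 0.609 in the same order. The family's summed level was 22.1 ± 2.18 RPKM in wild type and 25.0 ± 4.60 RPKM in the double KO, with overlapping libraries. The summed level in Scl KO was 14.4 ± 0.460 RPKM, below every library of the other groups. Vegfd and the placental growth factor Pgf together stayed a minor share, with group means of at most 1.36% and 2.20%. Vegfd was called as a rise of 3.48 in the double KO against wild type (adjusted p = 0.0164), from 0 to 0.167 CPM to 0.593 to 0.971 CPM. Its wild-type level was near the floor, and the call was lost in 2 of 15 alternatives.

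**Figure D3:**
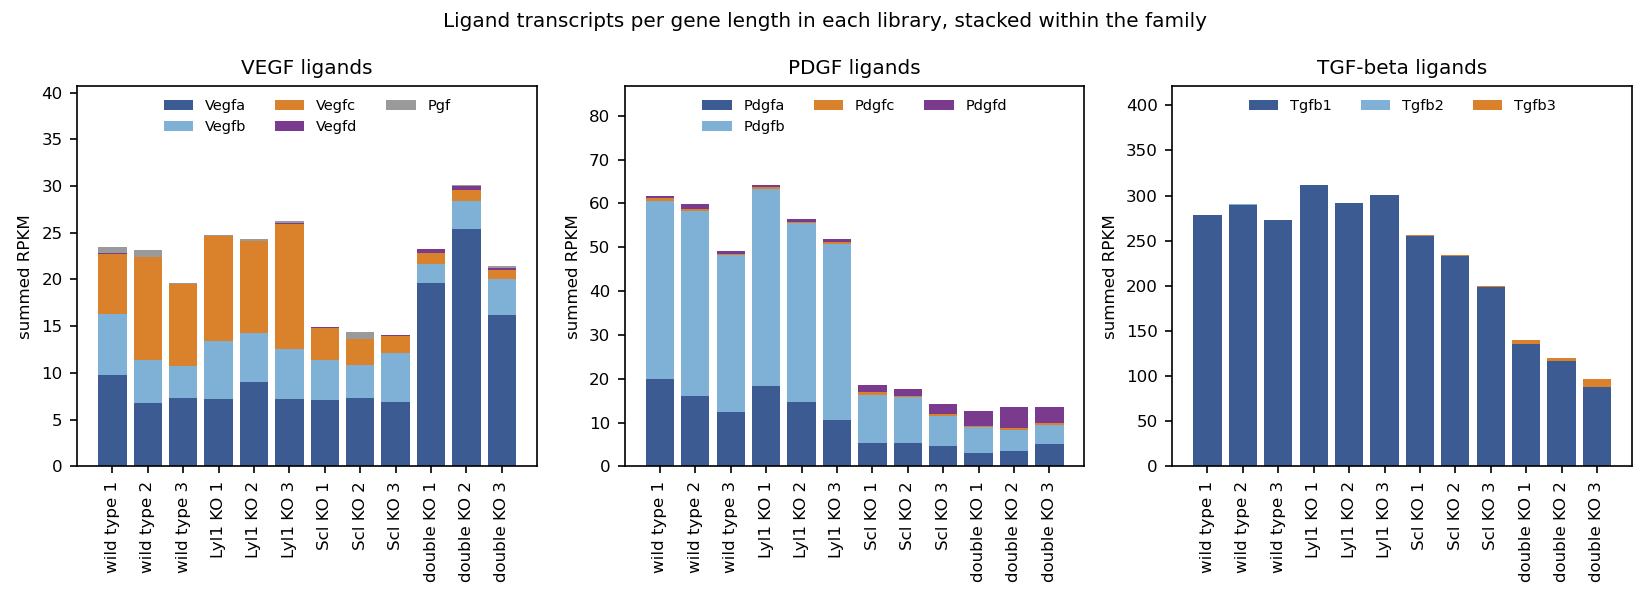
Summed RPKM on the y axis for the VEGF, PDGF and TGF-beta ligands in each of the 12 libraries, stacked by gene. In the double KO the VEGF bars are mostly Vegfa (81.3% on average), Pdgfd makes up 29.2% of the much shorter PDGF bars, and Tgfb1 remains 94.9% of the TGF-beta bars.

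Of 12 other genes of VEGF and angiopoietin signalling, 0 were called in Lyl1 KO, 1 fell in Scl KO and 3 rose and 3 fell in the double KO against wild type. Over all tested genes 0.0714%, 5.03% and 34.5% were called in these comparisons, which is the background for this and the following pathway counts. Their median log2 fold changes were 0.13, -0.37 and -0.36. Ccbe1, a secreted protein needed to process Vegfc into its active form, lay at 2.08 to 4.27 CPM in wild-type libraries, 1.86 to 5.39 CPM in Lyl1 KO, 3.60 to 5.74 CPM in Scl KO and 28.2 to 82.1 CPM in the double KO. It rose by 3.99 ± 0.52 against wild type (adjusted p = 0.000124), opposite in direction to Vegfc itself. Kdr, the main Vegfa receptor, fell by 0.74 ± 0.16 in Scl KO (adjusted p = 0.0163), from 55.8 to 74.8 CPM in wild type down to 37.6 to 41.7 CPM. That call was lost without wild type replicate 2 or without any 1 of the Scl KO libraries, where the highest adjusted p was 0.0812. Kdr in the double KO was at 38.5 to 58.8 CPM, a fall of 0.52 ± 0.15 (adjusted p = 0.0205) that did not hold without wild type replicate 2, double KO replicate 1 or double KO replicate 3, nor in a fit of only the libraries compared. Flt4, the receptor of Vegfc, had group means of 0.318 to 1.40 CPM and was not called against wild type in any group.

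Angpt1, the vessel-stabilising ligand of Tie2 (ENSMUSG00000022309, chr15:42424727-42676977, minus strand), was the second most abundant factor and fell least of those called. Wild-type libraries had 479, 580 and 509 CPM, those of Lyl1 KO had 548, 463 and 503 CPM, and levels were 387, 400.2 and 352 CPM in Scl KO and 399, 305 and 261 CPM in the double KO. Wild type and Lyl1 KO overlapped, and all Scl KO and double KO libraries lay below both. The fall was 0.70 ± 0.15 in the double KO against wild type (adjusted p = 0.00374) and 0.65 ± 0.15 against Lyl1 KO (adjusted p = 0.00547). In Scl KO the value of -0.46 ± 0.15 was not called by edgeR (adjusted p = 0.117), while DESeq2 called it (adjusted p = 0.0384). The double KO and Scl KO overlapped at -0.24 ± 0.15 (adjusted p = 0.3), and without double KO replicate 1, the highest of its group, the difference was -0.42 (adjusted p = 0.0379). Over all edgeR fits with 1 library left out, that difference ran from -0.42 to -0.12, with adjusted p up to 0.616. Tek, the gene of Tie2, fell in the double KO by 0.68 ± 0.18 (adjusted p = 0.0107), from 11.4 to 15.7 CPM in wild type down to 7.23 to 11.1 CPM. Without wild type replicate 2, or in a fit of only the libraries compared, the Tek call was lost. The more abundant Tie1 went the other way. It rose in the double KO by 0.50 (adjusted p = 0.0174), from 80.3 to 112 CPM in wild type to 117 to 161 CPM. The Tie1 call was lost in 5 of 16 alternatives, among them without wild type replicate 1 or 2 or double KO replicate 1.

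Pdgfb, which recruits pericytes and smooth muscle cells to vessels (ENSMUSG00000000489, chr15:79995900-80014808, minus strand), had the smallest adjusted p of the members in every comparison with wild type in which any was called. It stood at 119, 123 and 105 CPM in wild-type libraries, 131, 119 and 117 CPM in Lyl1 KO, 32.1, 30.8 and 20.1 CPM in Scl KO and 17.1, 14 and 12.6 CPM in the double KO. The 6 Scl KO and double KO libraries lay far below the 6 others, and the double KO lay below Scl KO without overlap. Pdgfb fell by 2.06 ± 0.17 in Scl KO (adjusted p = 4.2e-05). It fell by 2.99 ± 0.18 in the double KO (adjusted p = 5.58e-07) and by 0.92 ± 0.17 between the double KO and Scl KO (adjusted p = 0.00262). The interaction of -1.01 ± 0.23 was called (adjusted p = 0.0207). Leaving out Lyl1 KO replicate 1, Scl KO replicate 1 or Scl KO replicate 2 ended that call, with adjusted p of 0.0568, 0.0539 and 0.0592.

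Pdgfa, the ligand that acts chiefly on mesenchymal cells through Pdgfra (ENSMUSG00000025856, chr5:138976014-138997370, minus strand), fell in Scl KO and no further in any called comparison. Wild-type levels were 62.0, 49.8 and 38.2 CPM and those of Lyl1 KO 57.3, 45.9 and 33.1 CPM, with 16.5, 16.5 and 14.4 CPM in Scl KO and 9.71, 11.1 and 15.9 CPM in the double KO. Double KO and Scl KO overlapped, and both lay below every wild-type and Lyl1 KO library. The fall was 1.66 ± 0.24 in Scl KO (adjusted p = 0.0019) and 2.03 ± 0.24 in the double KO (adjusted p = 6.16e-05). The difference of -0.37 ± 0.24 between those groups was not called (adjusted p = 0.305), nor was the interaction of -0.23 ± 0.33 (adjusted p = 0.725).

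Pdgfc, which needs cleavage outside the cell to become active (ENSMUSG00000028019, chr3:81036416-81214040, plus strand), was called in no comparison. Its levels were 4.04, 2.27 and 1.24 CPM in wild-type libraries, 1.99, 1.92 and 1.62 CPM in Lyl1 KO, 3.37, 1.32 and 2.35 CPM in Scl KO and 1.37, 2.59 and 2.68 CPM in the double KO. All groups overlapped. With 138 to 205 counts per group and an SE near 0.45, small changes could have been missed.

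The summed level of the PDGF family was lower in both Scl KO and the double KO, and its makeup differed there. Summed over 4 ligands it stood at 56.9 ± 6.75 RPKM in wild type, 57.6 ± 6.19 in Lyl1 KO, 16.8 ± 2.27 in Scl KO and 13.2 ± 0.496 in the double KO. Pdgfb fell from 69.8% ± 3.63 of the family in wild type to 55.8% ± 6.43 in Scl KO and 38.0% ± 7.31 in the double KO, while Pdgfa stayed between 25.0% and 30.3% in the group means. Pdgfd, a ligand of the Pdgfrb receptor that was not among the 10, went the other way. It rose by 2.25 ± 0.31 in the double KO (adjusted p = 0.000209), from 1.42 to 3.75 CPM in wild type to 10.8 to 14.8 CPM, and made up 29.2% ± 4.66 of the family there. The receptors Pdgfra and Pdgfrb had group means of at most 2.54 and 11.4 CPM. Of the 4 other PDGF pathway genes tested, 0 were called in either single KO, and in the double KO Pdgfd rose and Pdgfrb fell. The Pdgfrb call (-1.83 ± 0.66, adjusted p = 0.0478) was lost without any 1 of the double KO libraries, without wild type replicate 1 or 2, with limma-voom, with no filter on low counts and with Y-linked transcripts as a term.

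Tgfb1, the main TGF-beta of platelets (ENSMUSG00000002603, chr7:25687002-25705077, plus strand), was the most abundant factor and fell in the double KO. It stood at 1400, 1460 and 1378 CPM in wild-type libraries, 1573, 1475 and 1518 CPM in Lyl1 KO, 1288, 1175 and 1004 CPM in Scl KO and 681, 591 and 444 CPM in the double KO. The 4 groups did not overlap at any step, with Lyl1 KO highest and the double KO lowest. Neither single KO was called against wild type, with 0.11 ± 0.15 in Lyl1 KO (adjusted p = 0.9) and -0.29 ± 0.15 in Scl KO (adjusted p = 0.365). In the double KO Tgfb1 fell by 1.30 ± 0.16 against wild type (adjusted p = 6.63e-05) and by 1.01 ± 0.16 against Scl KO (adjusted p = 0.00103). The interaction was -1.12 ± 0.22 (adjusted p = 0.00915).

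Tgfb1 was nearly the only TGF-beta ligand outside the double KO, at 99.6% or more of the summed RPKM in the other group means. Tgfb3 lay at 0.437 to 1.18 CPM in wild-type libraries, 0.255 to 0.414 CPM in Lyl1 KO, 2.06 to 2.90 CPM in Scl KO and 10.8 to 29.7 CPM in the double KO, a rise of 4.49 ± 0.43 against wild type (adjusted p = 1.4e-05). It reached 5.09% ± 3.46 of the TGF-beta ligands there. Of 19 other TGF-beta pathway genes tested, 0 were called in Lyl1 KO, 3 rose in Scl KO, and 5 rose and 4 fell in the double KO. Of the genes whose proteins bind latent TGF-beta, Ltbp1 of the latent complex fell in the double KO by 1.12 ± 0.18 (adjusted p = 0.00046), the platelet surface anchor Lrrc32 by 1.56 ± 0.38 (adjusted p = 0.0079) and the macrophage anchor Nrros by 0.42 ± 0.10 (adjusted p = 0.00692). Ltbp3, of the same family as Ltbp1, was not called (0.17 ± 0.28, adjusted p = 0.681), its mean going from 5.41 to 6.06 CPM, and Ltbp4 was too low to be tested. The signal transducer Smad3 rose in steps, from 49.1 to 63.1 CPM in wild type to 121 to 135 CPM in Scl KO (1.23 ± 0.12, adjusted p = 0.000196) and 194 to 224 CPM in the double KO (1.92 ± 0.13, adjusted p = 1.1e-06). Furin, the protease that matures Tgfb1, Vegfc and Pdgfb among others, rose by 0.92 ± 0.14 in Scl KO (adjusted p = 0.00286) and by 0.72 ± 0.14 in the double KO (adjusted p = 0.002).

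**Figure D4:**
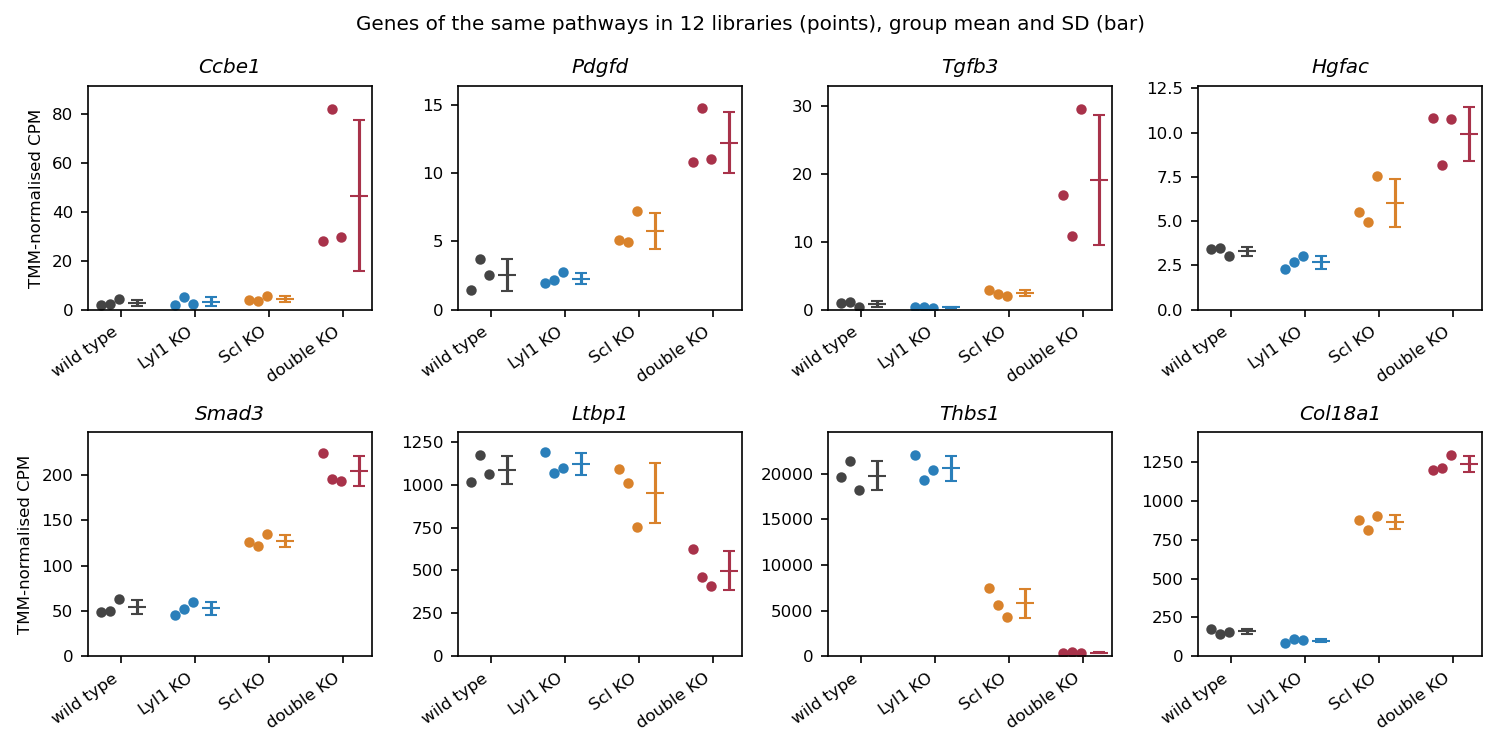
TMM-normalised CPM on the y axis for 8 genes of the same pathways or of platelet cargo, with 1 point per library and a bar for the group mean and SD. Ccbe1, Tgfb3 and Pdgfd are highest in the double KO, Smad3 and Col18a1 rise in steps, and Thbs1 drops from 18200 to 21400 CPM in wild type to 378 to 432 CPM in the double KO.

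Hgf, the ligand of Met (ENSMUSG00000028864, chr5:16553495-16620152, plus strand), was low in wild type and Lyl1 KO and high in the double KO. The wild-type libraries had 8.58, 7.58 and 16 CPM and the Lyl1 KO ones 7.49, 8.51 and 7.53 CPM, with 17.6, 20.3 and 28.4 CPM in Scl KO and 43.1, 75.2 and 34.6 CPM in the double KO. Wild type and Lyl1 KO overlapped, and Scl KO and the double KO lay above them in turn without overlap. Double KO libraries had Hgf higher by 2.25 ± 0.33 than wild type (adjusted p = 0.000296) and by 2.70 ± 0.34 than Lyl1 KO (adjusted p = 8.76e-05). The Scl KO value of 1.04 ± 0.32 was not called by edgeR (adjusted p = 0.0982) but was by DESeq2 (adjusted p = 0.0207), and without wild type replicate 3, the highest wild-type library, it was 1.45 (adjusted p = 0.021). Over all edgeR fits with 1 library left out, that value ran from 0.82 to 1.45, with adjusted p up to 0.337. The rise of 1.20 ± 0.32 from Scl KO to the double KO (adjusted p = 0.0205) was lost without Scl KO replicate 1 (adjusted p = 0.0939), Scl KO replicate 2 (0.0813) or double KO replicate 2 (0.0954), with no filter on low counts (0.0585) and with Y-linked transcripts as a term (0.155). The interaction of 1.66 ± 0.46 sat near the threshold (adjusted p = 0.0423). It was lost without any 1 of the Lyl1 KO libraries, wild type replicate 1 or 3, Scl KO replicate 1 or 2, or double KO replicate 2, where the highest adjusted p was 0.108. It was also lost with the replicate number as a block (adjusted p = 0.0542), with limma-voom (0.0938), with no filter on low counts (0.108) and with Y-linked transcripts as a term (0.0821), so that 12 of 21 alternatives ended the call. Hgf shares exon sequence on the same strand with the predicted gene Gm43489, which had 236 counts in all libraries. Some Hgf reads in the shared sequence may not have been counted, and these counts do not show how many. No other member overlapped an exon of another gene on its own strand.

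Of 6 other HGF pathway genes, 1 rose in Scl KO, and 1 rose and 1 fell in the double KO. Hgfac, the protease that activates Hgf, rose by 1.59 ± 0.21 in the double KO (adjusted p = 0.000135), from 3.03 to 3.49 CPM in wild type to 8.17 to 10.9 CPM. Its Scl KO rise (0.86 ± 0.21, adjusted p = 0.0345) was lost in 9 alternatives, among them without any 1 of the wild-type libraries, without Scl KO replicate 1 or 3 and with limma-voom. Met, the receptor, went from 4.99 to 7.54 CPM in wild type to 2.08 to 4.84 CPM in the double KO, a fall of 1.02 ± 0.33 (adjusted p = 0.0322) that was lost without wild type replicate 1 or 2 or double KO replicate 1 or 2, and in a fit of only the libraries compared or with Y-linked transcripts as a term. Over all alternatives its largest adjusted p was 0.165.

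Igf1 (ENSMUSG00000020053, chr10:87858265-87937042, plus strand) was called in 1 comparison. It stood at 87.1, 53.9 and 49.0 CPM in wild-type libraries, 90.2, 92.4 and 67.7 CPM in Lyl1 KO, 46.2, 44.5 and 72.7 CPM in Scl KO and 36.8, 34.9 and 47.8 CPM in the double KO. The double KO lay below all wild-type and Lyl1 KO libraries and overlapped Scl KO. It was lower than in Lyl1 KO by 1.07 ± 0.25 (adjusted p = 0.00536). Against wild type the value was -0.67 ± 0.25 (adjusted p = 0.0529), which DESeq2 called (adjusted p = 0.0268), as did edgeR without wild type replicate 3 (0.0311) or double KO replicate 3 (0.0449). Over all edgeR fits with 1 library left out, that value ran from -0.83 to -0.37, with adjusted p up to 0.268. Of the 9 other IGF pathway genes tested, 0 were called in Lyl1 KO, 1 rose in Scl KO, and 2 rose and 3 fell in the double KO. The insulin receptor Insr rose by 1.30 ± 0.15 in the double KO (adjusted p = 5.95e-05), from 78.4 to 79.6 CPM in wild type to 144 to 230 CPM.

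Other cargo of platelets did not move as 1 block either. Of 10 further platelet-carried factors tested, 0 were called in Lyl1 KO, 2 rose and 1 fell in Scl KO, and 2 rose and 4 fell in the double KO, with a median log2 fold change of -1.36 there. The anti-angiogenic thrombospondin Thbs1 fell by 1.77 ± 0.20 in Scl KO (adjusted p = 0.000412) and by 5.60 ± 0.24 in the double KO (adjusted p = 6.55e-08). Col18a1, whose protein yields the anti-angiogenic fragment endostatin, rose by 2.44 ± 0.13 in Scl KO (adjusted p = 1.39e-06) and by 2.95 ± 0.13 in the double KO (adjusted p = 7.41e-08). Timp3, an inhibitor of matrix proteases that also blocks Vegfa binding to Kdr, rose by 1.40 ± 0.18 in Scl KO (adjusted p = 0.000995), from 2660 to 3850 CPM in wild type to 7770 to 9420 CPM, and was at 3840 to 4240 CPM in the double KO. The chemokines Pf4 and Ppbp, both platelet markers, fell in the double KO by 0.97 ± 0.15 (adjusted p = 0.000376) and 1.75 ± 0.34 (adjusted p = 0.00208). In Lyl1 KO, where edgeR called 0 genes of these lists, an unadjusted p under 0.05 was found for 3 of 12 VEGF and angiopoietin, 2 of 4 PDGF, 2 of 19 TGF-beta, 3 of 9 IGF and 1 of 6 HGF pathway genes and 4 of 10 platelet-carried factors, beside 7.99% of all tested genes. Beside the rise of Vegfa, a gene known to respond to low oxygen, 10 other hypoxia-induced genes were examined. In the double KO against wild type 1 rose and 1 fell, with a median of 0.04, the same as over all tested genes. The 1 that rose was Adm, the vessel peptide adrenomedullin, by 4.36 ± 0.66 (adjusted p = 0.000372), from 0.255 to 0.654 CPM to 4.25 to 17.8 CPM. Vegfa also rose in the double KO against each single KO. Of the 10 genes, 1 rose and 0 fell against Scl KO, beside 19.1% of all tested genes called. Against Lyl1 KO, 3 rose and 1 fell, beside 35.2% called. The part of low oxygen in the rise of Vegfa was not tested.

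Most markers of megakaryocytes fell in the double KO, whereas in Scl KO none was called by edgeR. The 18 megakaryocyte and platelet markers summed to 60500 to 68920 CPM in wild-type libraries, 66080 to 75860 CPM in Lyl1 KO, 45960 to 63110 CPM in Scl KO and 18570 to 36510 CPM in the double KO. Of these, 0 of 18 were called by edgeR in Scl KO (2 with an unadjusted p under 0.05) and 15 of 18 fell in the double KO against wild type, beside 5.03% of all tested genes called in the first comparison and 18.1% called as falls in the second. In the double KO against Scl KO, 15 of 18 also fell, beside 10.8% of all tested genes called as falls. In bulk RNA, fewer cells of a type and less RNA per cell cannot be told apart. The factors were therefore also set against the summed markers, as CPM per 1000 CPM of markers, which is a description without a test. On that scale Tgfb1 stood at 22.1 ± 0.810 in wild type, 22.0 ± 1.15 in Lyl1 KO, 20.5 ± 1.31 in Scl KO and 21.8 ± 2.78 in the double KO, with overlapping libraries. That overlap rests on 1 marker: without Ppbp, 15% to 30% of the sum, Tgfb1 was at 29.8 to 30.9 in wild type and 24.5 to 28.1 in the double KO. Angpt1 stood at 8.15 ± 0.460, 7.28 ± 0.307, 6.77 ± 0.784 and 12.2 ± 1.61, highest in the double KO. Pdgfb was lower in Scl KO and the double KO on this scale too, at 1.80 ± 0.0787, 1.77 ± 0.0379, 0.483 ± 0.0394 and 0.563 ± 0.108, with Scl KO and the double KO now overlapping. Vegfc likewise stood at 0.334 ± 0.0739, 0.408 ± 0.0752, 0.112 ± 0.0191 and 0.108 ± 0.0267. Pdgfa differed from both. It was at 0.632 to 0.986 in wild type, 0.262 to 0.313 in Scl KO and 0.266 to 0.854 in the double KO, so that the double KO overlapped wild type at 66.1% of its mean, against 24.4% in CPM. Vegfa per marker was 0.536 ± 0.121 in wild type, 0.548 ± 0.0856 in Scl KO and 3.42 ± 0.992 in the double KO, and Hgf was 0.170 ± 0.0823, 0.410 ± 0.182 and 1.98 ± 0.866. Vegfa and Hgf were highest in the double KO on this scale too. That order had to follow, since their CPM was highest and the marker sum lowest in the double KO, so it adds nothing to the CPM result.

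**Figure D5:**
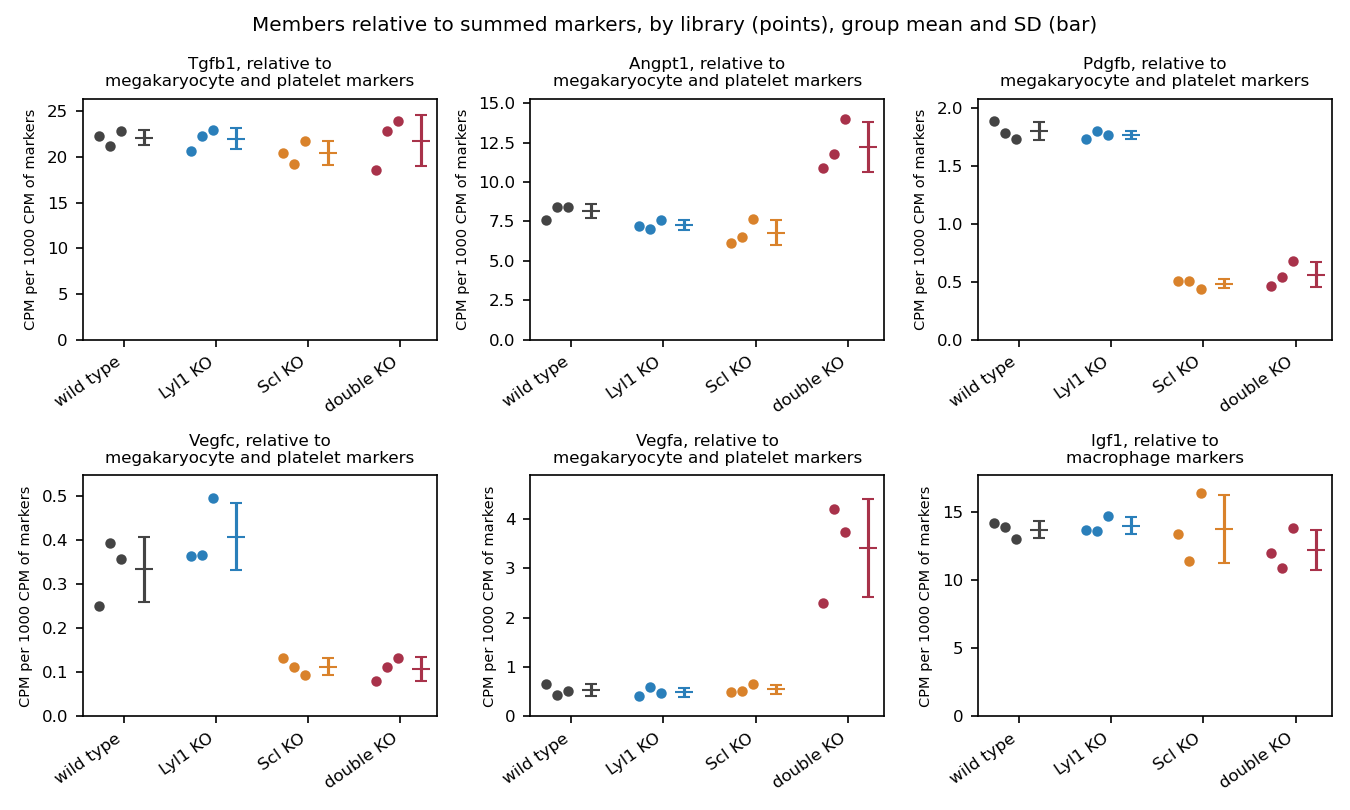
CPM of 6 factors per 1000 CPM of summed marker transcripts on the y axis, with 1 point per library and a bar for the group mean and SD; Igf1 is set against macrophage markers and the others against megakaryocyte and platelet markers. Tgfb1 stays between 18.6 and 23.9 in all libraries, Pdgfb and Vegfc are low in Scl KO and the double KO, and Vegfa is high in the double KO.

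Summed markers of other cells differed between genotypes too, and the macrophage and endothelial sums were led by few genes. The 12 macrophage markers summed to 3760 to 6132 CPM in wild-type libraries, 4613 to 6802 CPM in Lyl1 KO, 3459 to 4434 CPM in Scl KO and 3059 to 3457 CPM in the double KO. Lyz2 alone made up 73.6% to 85.1% of that sum. In the double KO against wild type, 3 of 12 were called down, beside 18.1% of all tested genes called as falls. All 12 had a log2 fold change below 0 there, with a median of -0.87. In Lyl1 KO, 8 of the 12 had a log2 fold change below 0, and 0 were called by edgeR (1 with an unadjusted p under 0.05). Igf1 per 1000 CPM of these markers was 13.7 ± 0.610, 14 ± 0.607, 13.7 ± 2.49 and 12.3 ± 1.46 in the same order of genotypes, with overlapping libraries. Without Lyz2 it was 69.3 ± 17, 85.8 ± 4.84, 72.8 ± 14.3 and 70.9 ± 11.2, so that Lyl1 KO then lay above every double KO library.

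The 11 endothelial markers summed to 894 to 1166 CPM, 1063 to 1309 CPM, 420 to 675 CPM and 210 to 379 CPM, of which Pecam1 and Esam, also made by platelets, were 93.2% to 99.6%. The other 9 summed to 7.98 to 47.3 CPM, 4.78 to 10.4 CPM, 9.17 to 21.5 CPM and 5.84 to 21.5 CPM. In Lyl1 KO, 7 of the 9 tested endothelial markers had a log2 fold change below 0, with a median of -1.86 over the 9. Only 1 of the 9 separated these groups without overlap of libraries. EdgeR called 0 there, and 4 had an unadjusted p under 0.05, beside 7.99% of all tested genes. Against wild type, 1 of the 9 was called down in Scl KO and 3 in the double KO. Over all tested genes, 2.73% and 18.1% were called as falls in those comparisons. Erythroid markers, 10 in number, summed to 571 to 674 CPM in wild type, 1166 to 1601 CPM in Lyl1 KO, 278 to 774 CPM in Scl KO and 42.9 to 298 CPM in the double KO, where 3 of 6 tested fell and 1 rose. The 9 fibroblast and mesenchyme markers, Pdgfra among them, summed to 150 to 164 CPM, 12.3 to 90.8 CPM, 33.1 to 352 CPM and 20.6 to 49.8 CPM, and 2 of 8 tested fell in the double KO against wild type. Beside these erythroid and fibroblast counts, 18.1% of all tested genes were called as falls in that comparison and 16.4% as rises. The part that changes in cell makeup play in the changes of the members was not tested.

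Across the 12 libraries the factors fell into groups of like pattern, measured by Pearson's r of log2 CPM and given as a description of libraries that share genotype and depth. Among the members, Vegfc and Pdgfb were most alike (r = 0.982), followed by Pdgfa and Pdgfb (r = 0.947) and Angpt1 and Pdgfb (r = 0.918). Vegfa and Hgf had r = 0.765. Among tested genes with a mean of at least 1 CPM, those closest to Tgfb1 were Sema4b (r = 0.999), Gas2l1 and Ankrd35 (both 0.997), and closest to Pdgfb were Fam213a, Eif2ak1 and Mras (each 0.995). Vegfc was most like Simc1 (0.987), Foxk2 (0.985) and Bid (0.984), Pdgfa most like Icam1 (0.984), Iqsec1 (0.979) and Itgal (0.976), and Angpt1 most like Tm7sf3 (0.985), Prkcq (0.982) and Patz1 (0.981). Closest to Vegfa were Trim11 (0.965), Matk (0.964) and Ptpn6 (0.960). Hgf was nearest to Tmem70 (0.981), Osbpl3 (0.975) and Pip4k2b (0.974). For Igf1 the nearest were Ctsd (0.984), Slc11a1 (0.974) and Sgpl1 (0.970), and for Vegfb they were Lonrf3 (0.958), Cln8 (0.944) and Tmem65 (0.941).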

How the data were processed

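The authors deposited raw counts, as 1 table with a row per gene and a column for each of 12 libraries, all of which were mapped to samples. Per the labels, RNA was made into strand-specific libraries of polyadenylated RNA. Per the submitters' processing notes, STAR 2.5.2b, featureCounts of Subread 1.5.2, limma and mouse build GRCm38 were used. Per the file headers, counting used the reverse strand and Ensembl release 87, without an option for reads that map to several places, so reads shared by similar genes can be lost. The sources used here give no read length or trimming.

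The test was edgeR 4.0.16 (R 4.3.3): filterByExpr by group (minimum count 10, minimum total 15), TMM scaling, and a robust quasi-likelihood fit over the 12 libraries, with genotype as its single term. P-values were adjusted by Benjamini-Hochberg over 15399 genes within each comparison, and a call needs an adjusted p under 0.05. Symbols were matched by Ensembl identifier for 49326 of 49671 genes. RPKM uses the deposited gene lengths. Groups came from the genotype labels. Replicate numbers from the labels were checked for pairing by the correlation of deviations from group means. All 3 same-number pairs were above 0.1 for wild type with Scl KO (0.116, 0.225 and 0.411) and for Scl KO with the double KO (0.297, 0.182 and 0.523). Some pairs of unlike number were higher than these. Wild type 1 with Scl KO 2 had 0.151, wild type 2 with Scl KO 1 had 0.284, and Scl KO 2 with double KO 1 had 0.304. Pairs of replicate 3 with replicate 1 or 2 of those groups were from -0.422 to -0.185. Deviations within a group cancel out, so these low values follow in part from the high values of replicate 3 with replicate 3. The check set replicate 3 of those groups apart and did not settle whether libraries pair by number. Over all groups 12 of 18 pairs were above 0.1, from -0.085 to 0.523, and 8 of 12 libraries correlated best with their own number. Results are from the fit without the block, and blocked values stand where they change a call or a count. The scripts were tested on simulated data. All 10 members are named, along with the targeted genes, up to 4 called genes with the smallest adjusted p per pathway list and comparison, markers needed beside a result, and the 3 tested genes of most like pattern per called member. Lrrc32 is named as an anchor of Tgfb1, Kdr, Flt4, Tek, Pdgfra, Pdgfrb and Met as receptors of the members, Pgf and Vegfd as their family, and Igf2 as a check of the label; of these, some lie outside that rule and were chosen after their values were seen. Members and lists were chosen with earlier results of these data known. Alternatives were DESeq2 1.42.0 size factors and Wald test, limma 3.58.1 voom, other filters, a replicate block, fits of only the libraries compared, a term for the side of the second component, and leaving out each library. Chosen after seeing the data were a term for Y-linked transcripts, leaving out 3 libraries by that component, and marker sums without the leading gene. Floors and intervals cover counting error only.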

Additional observations from a re-analysis of the deposited data

Results flagged for a closer look

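For 5 of the 10 factors the effect of losing Lyl1 differed between libraries labelled as with and without Scl, by edgeR's test of the interaction itself. Each value is the log2 difference between the double KO and Scl KO less that between Lyl1 KO and wild type. For Vegfa it was 1.54 ± 0.25 (adjusted p = 0.00348), with the double KO above Scl KO in 3 of 3 libraries. For Hgf it was 1.66 ± 0.46 (adjusted p = 0.0423), also with the double KO above Scl KO in 3 of 3. The Hgf call was lost in 12 of 21 alternatives, among them the replicate block (0.0542), limma-voom (0.0938) and no filter on low counts (0.108). Vegfc had -1.62 ± 0.35 (adjusted p = 0.0154), Tgfb1 -1.12 ± 0.22 (adjusted p = 0.00915) and Pdgfb -1.01 ± 0.23 (adjusted p = 0.0207), each with 3 of 3 double KO libraries below Scl KO. The Pdgfb call was lost without Lyl1 KO replicate 1, Scl KO replicate 1 or Scl KO replicate 2.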

How the results depend on the processing

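Of 29 calls on members, 25 held under every alternative run, and 4 were lost under some: Hgf and Pdgfb in the interaction, Hgf in the double KO against Scl KO, and Vegfb in the double KO against Lyl1 KO. None of the 29 changed sign. Of 31 uncalled results, 5 were called under some alternative and 12 changed sign under some. In Scl KO against wild type, DESeq2 called 5 members (1 up, 4 down) in place of 3. In the interaction the count went from 3 to 5 when 1 library was left out, and was 3 without Lyl1 KO replicate 1, Scl KO replicate 1 or Scl KO replicate 2. With 2 libraries left in a group, the fit still took its spread from all groups.

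With the replicate block the members called were 0, 3, 7, 5 and 9 in the 5 pairwise comparisons and 4 in the interaction, where Hgf was lost (adjusted p = 0.0542). It ended no other call on a member. The block gave Pdgfc 0.011 in the double KO against Scl KO, a change of sign.

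Other uncalled values that changed sign were as follows. With the side of the second component as a term, Vegfa was 0.136 and Angpt1 0.091 in Lyl1 KO against wild type. With Y-linked transcripts as a term, a setting chosen after seeing the data, Pdgfa was 0.04 in Lyl1 KO against wild type, Pdgfc 0.046 in the double KO against wild type, and Pdgfa 0.015 and Pdgfc 0.146 in the double KO against Scl KO. Leaving out 1 library, the log2 fold change in Lyl1 KO against wild type ran from -0.134 to 0.142 for Vegfa, -0.112 to 0.049 for Angpt1, -0.333 to 0.052 for Pdgfa and -0.78 to 0.072 for Pdgfc. In Scl KO it ran from -0.26 to 0.01 for Vegfa, -0.35 to 0.14 for Vegfb, -0.44 to 0.42 for Pdgfc and -0.487 to 0.088 for Igf1. For Pdgfc it ran from -0.51 to 0.34 in the double KO against wild type, -0.37 to 0.26 against Scl KO and -0.15 to 0.71 in the interaction. The causes were not tested.

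Counts over all genes moved more. For Lyl1 KO against wild type, 11 calls became 103 with DESeq2, 29 with only the libraries compared and 5 to 41 without 1 library. They became 692 without the 3 libraries that are replicate 3 of wild type, Scl KO and the double KO. In that setting all wild-type libraries lay above 0 on the second component and all Lyl1 KO libraries below. Genotype and component cannot be told apart there. For Scl KO, 774 became 1329 with DESeq2, 1226 with the block, 1631 with the component term, 1310 without those 3 libraries, and as few as 388 without 1 library. For the double KO against Scl KO, 2947 became 1742 with only the libraries compared and as few as 1645 without 1 library. For the interaction, 1444 became 2262 with DESeq2, 3199 with the component term, 2238 without those 3 libraries, and as few as 671 without 1 library. Of 103 calls on pathway genes, 53 held under every alternative and 50 were lost under some. Pdgfc, the member of fewest counts, had an SE near 0.45; the part of depth in it was not tested. Leaving the leading marker out of the sums, chosen after seeing the data, is given beside the ratios.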
